A study of Mus musculus with 45 samples.

Results

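GFP+ve cells of the adult small intestine were compared with GFP+ve cells of the E18.5 small intestine of the same line, to describe which genes differ between prenatal and adult Lgr5-expressing cells. The comparison takes 6 of the 45 libraries of the series and all 52636 genes of the table, and a gene was counted as changed only where it moved the same way in the duodenum and in the ileum. All animals were Lgr5-DTReGFP heterozygotes (HE). The line carries eGFP, joined to the receptor for diphtheria toxin, inside 1 Lgr5 allele that it disrupts, so embryos and adults alike had 1 working Lgr5 allele, and GFP marks cells in which the Lgr5 locus is active. The 2 E18.5 libraries came from 2 single embryos, each from cells of the whole small intestine. The 4 adult libraries came from 2 mice aged 2 months, each mouse giving 1 library of duodenum and 1 of ileum, from cells of isolated crypts. Age, the length of gut sampled and the tissue that was dissociated differ together between the groups and cannot be told apart. The labels name no treatment for these 6 samples.

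The prenatal epithelium is a sheet of villi with dividing cells in the intervillus regions between them, whereas in the adult the stem cells sit at the base of crypts, between Paneth cells that store lysozyme and defensins. Around weaning the mouse gut moves from handling milk, with lactase and uptake of whole proteins, to handling solid food, with sucrase and trehalase. Birth also brings bacteria, which adult epithelium meets with mucus, antimicrobial peptides and antigen presentation.

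The unit is CPM, read counts on genes scaled to the same total in every library, and the depths estimated from the steps between CPM values were 4111171 to 5606655 reads per library. Log2 fold changes below are adult minus E18.5 on log2(CPM + 1), with the standard error, after the 2 libraries of each mouse were averaged, so that 2 mice stand against 2 embryos. With the added 1, changes of genes of a few CPM are understated. Since nothing but the animals was replicated, p-values cover the spread between 2 embryos and between 2 mice. Ddx3y, on the Y chromosome, was at 74.3 and 0 CPM in the embryos, so the sexes of the 2 embryos differed. It was at 85.1 to 94.3 CPM in the 4 libraries of the mice, so both mice were male. Sex was thus not balanced between the stages, and its part in the differences was not tested.

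The sorted cells carried markers of epithelium and of crypt stem cells in all 6 libraries. Epcam, an adhesion molecule of epithelial cells, was at 1078 and 1058 CPM in the 2 embryos, 947 and 936 in the duodenum and 961 and 844 in the ileum of mice 1 and 2 (limma adjusted p = 0.139). Lgr5 itself was at 306 and 292 in the embryos, 346 and 308 in the duodenum and 339 and 356 CPM in the ileum, a log2 difference of 0.17 ± 0.09 that did not pass the test (adjusted p = 0.214). Markers of mature cells were present too, and in different proportion by stage. The 5 Paneth cell markers fixed for this check summed to 148 and 141 CPM in the embryos against 15970.4 and 16714 in the duodenum and 10784 and 26991 in the ileum, and the 5 tuft cell markers to 2.65 and 5.1 in the embryos, 1717 and 3009.8 in the duodenum and 209 and 421 CPM in the ileum. Goblet cell markers summed to 495 and 352 CPM in the embryos and to between 1342 and 7426 CPM in the adult libraries, with the library of ileum from mouse 2 highest. Enterocyte markers went the other way, from 3159 and 2590.3 CPM in the embryos to 729 and 1122 in the duodenum and 218 and 320.1 in the ileum. In bulk RNA, more cells of a type cannot be told apart from more RNA per cell, and the part of mature cells in the differences below was not tested.

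**Figure D1:**
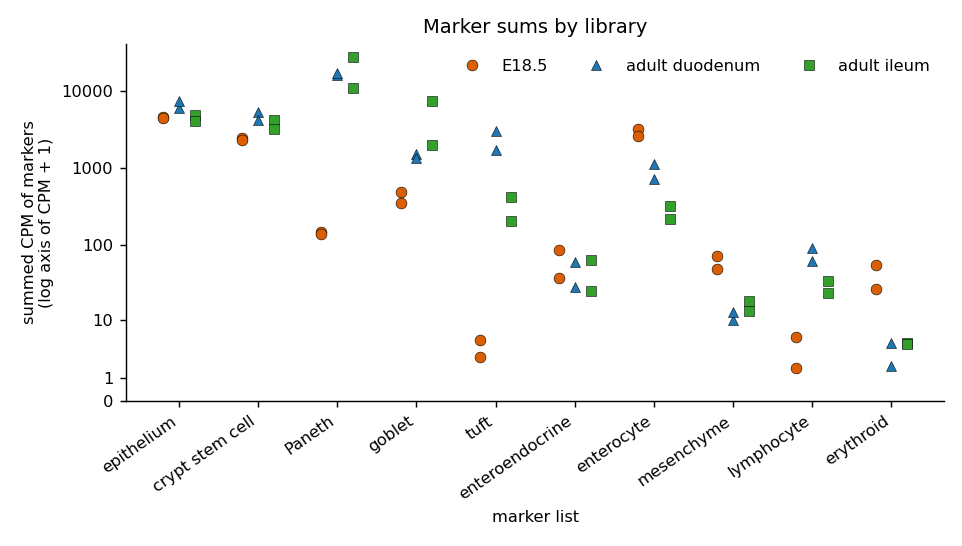
Summed CPM of the fixed marker lists of 10 cell types in the 6 libraries, on a log axis of CPM + 1, with 1 point per library (2 embryos, duodenum and ileum of 2 mice). The adult points lie above the E18.5 points for crypt stem cell, Paneth, goblet, tuft and lymphocyte markers, and below them for enterocyte, mesenchyme and erythroid markers.

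Markers of cells that the sort should have left out were low, except in the myeloid list. Its 10 markers summed to 38.55 and 33 CPM in the embryos and to between 1560 and 3181 in the adults. Most of the adult sum was Lyz2, whose reads may be shared with the Paneth cell gene Lyz1. The 18 markers of mesenchyme and smooth muscle summed to 71.8 and 49.6 CPM in the embryos and 9.9 to 18.3 CPM in the adults. Pdgfra, Twist1, Twist2, Foxf1 and Foxl1 were below the filter of 1 CPM in 2 libraries. Of the 9 markers tested 7 fell, Vim, Acta2 and Myh11 among them, and none rose. Lymphocyte markers summed to 5.75 and 1.65 CPM in the embryos and 23.4 to 91.8 in the adults, and most of the adult sum was Ptprc. Of these markers 5 were tested and 4 rose (Ptprc, Gzma, Gzmb and Cd3g), while Cd3e, Cd3d, Cd2, Trac, Cd79a, Ms4a1 and Igkc were below the filter. Endothelial markers summed to 7.35 and 11.4 CPM in the embryos, 24.4 and 44.0 in the duodenum and 13.3 and 15.2 in the ileum, and 4 of 7 tested rose and none fell. Erythroid markers fell from 26.9 and 55.4 CPM in the embryos to at most 4.65.

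Of 19554 genes tested, 4913 changed the same way in both regions with an adjusted p under 0.1 and by more than 1.5-fold, which is 25.1% of the genes tested. They comprised 2621 genes higher in the adult (13.4%) and 2292 genes lower (11.7%), and 535 and 341 of these, respectively, changed more than 4-fold. Leaving out an animal lowered the count, to 2887 without mouse 2, 3232 without embryo 1 and 3130 without embryo 2. A further 89 genes passed both limits but moved in opposite directions in the 2 regions. In 4507 of the 4913 changed genes all 4 adult libraries lay outside the range of the 2 embryos. The same held for 8458 (43.3%) of all genes tested. The changed genes were picked from these same libraries, so a higher share among them is largely built in. The median log2 fold change over all genes tested was -0.04, and the medians of gene lists below are read beside it. The 12 named genes with the largest rises were defence and tuft cell genes (Lyz1, AY761184, Defa35, Lyz2, Defa29, Pla2g2a, Cd74, Ang4, Trpm5, Sh2d6, Retnlb and Defa31), and the 12 with the largest falls were led by fetal growth genes (H19, Igf2, Hif3a, Cym, Gpc3, Igf2bp1, Ros1, Meltf, Plod2, Trim71, Grb10 and Mir675).

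**Figure D2:**
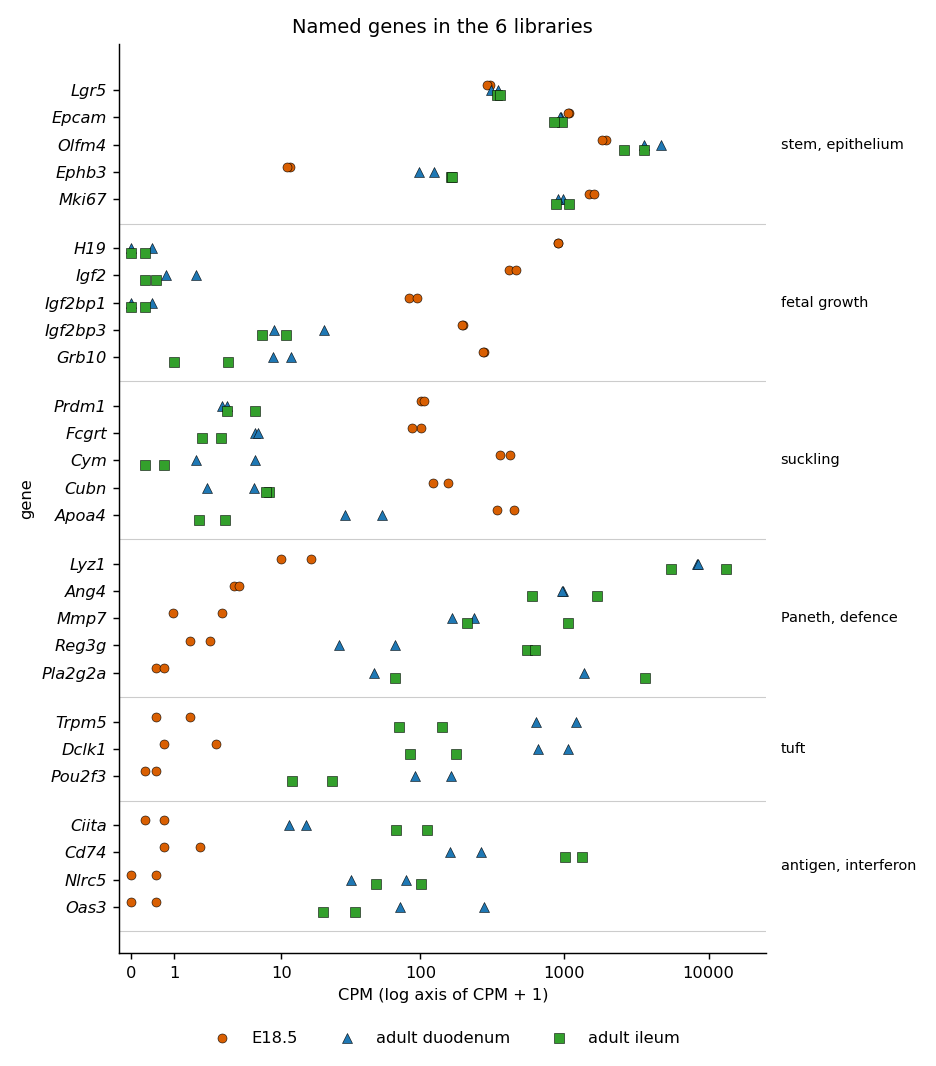
CPM of 27 named genes in each of the 6 libraries, on a log axis of CPM + 1, grouped by role, with 1 point per library (E18.5 embryos, adult duodenum, adult ileum). Fetal growth and suckling genes have both E18.5 points to the right of all adult points, the Paneth, tuft and antigen presentation genes have them to the left, and Lgr5 and Epcam have all 6 points within a narrow range.

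Most of the fetal growth genes tested fell in the adult cells, some of them to near 0 CPM. H19, an imprinted long noncoding RNA at chr7:142575529-142578143 in GRCm38, was at 901 and 903 CPM in the embryos and at 0.4 and 0 in the duodenum and 0.25 and 0 in the ileum. That is at most 2 reads in any adult library, and the log2 fold change was -9.62 ± 0.16 (limma adjusted p = 2.08e-08). Its imprinted neighbour Igf2, a growth factor, fell from 414 and 464 CPM to 0.75 and 1.8 in the duodenum and 0.5 and 0.25 in the ileum (log2 fold change -7.98 ± 0.15, adjusted p = 2.86e-08). Both regions of both mice were far below both embryos. The hairpin of miR-675 lies in an exon of H19 and was read at 38.8 and 49.3 CPM in the embryos and listed at 0 in every adult library, where reads of the hairpin and of H19 cannot be told apart. Its mature forms from RefSeq are shown because this locus had the largest fall, with the seed (bases 2 to 8) in capitals and positions in GRCm38.p6.
mmu-miR-675-5p (chr7:142577112-142577133, minus strand): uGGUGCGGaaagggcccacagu
mmu-miR-675-3p (chr7:142577078-142577099, minus strand): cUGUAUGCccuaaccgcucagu
Of the 27 imprinted and fetal growth genes listed, 20 were tested, 13 fell and none rose (median log2 fold change -1.52).

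RNA-binding proteins of the fetal programme fell with them. Igf2bp1, which binds mRNAs such as that of Igf2, was at 83.0 and 95.1 CPM in the embryos and at 0.4 and 0 in the duodenum and 0.25 and 0 in the ileum (log2 fold change -6.29 ± 0.22). Igf2bp3, of the same family, kept a low adult level of 20.7 and 8.8 CPM in the duodenum and 7.1 and 10.8 in the ileum, against 198 and 195 in the embryos (log2 fold change -4.05 ± 0.14, limma adjusted p = 2.93e-07). Trim71, a target of let-7 microRNAs in stem cells, went from 53.0 and 64.2 CPM to 0.25 or less in the adults. Lin28b, which blocks let-7, was already at 0.5 and 0 CPM in the embryos and was below the filter. Among the imprinted genes Grb10, an adaptor that restrains insulin signalling, fell from 276 and 272 CPM to 8.6 and 11.9 in the duodenum and 1 and 3.7 in the ileum, and Plagl1, a zinc finger factor, from 67.6 and 72.5 CPM to 0.2 and 0.45 in the duodenum and 1.5 and 4.15 in the ileum. Impact, also imprinted, stood at 17.8 and 19.1 CPM in the embryos and 18.4 to 20.4 in the adults and did not pass (adjusted p = 0.727). Gpc3, an X-linked heparan sulfate proteoglycan that limits fetal growth, was at 171 and 161 CPM in the embryos and listed at 0 and 0 in the duodenum and 1.25 and 0.25 in the ileum. Hif3a, a hypoxia-inducible factor, was at 619 and 631 CPM in the embryos, 1.25 and 0.9 in the duodenum and 1.25 and 5.3 in the ileum (log2 fold change -7.81 ± 0.19, limma adjusted p = 8.76e-08). Fetal markers that return in regenerating epithelium did not share one direction, with 3 of 10 tested higher and 3 lower. Ly6a (Sca-1) was at 0.25 and 0.25 CPM in the embryos, 0.55 and 1.8 in the duodenum and 56.5 and 9.85 in the ileum, and Gja1 (connexin 43) fell from 11.1 and 12.5 CPM to 0.5 or less.

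The genes of the suckling gut fell in the adult cells, and those of the weaned gut rose. Each of the 10 suckling-type genes tested fell (median log2 fold change -3.66) and 5 of 6 weaned-type genes rose (median 1.92). Prdm1 (Blimp1), the repressor that holds the adult programme back before weaning, was at 101 and 106 CPM in the embryos, 3.25 and 3.6 in the duodenum and 3.65 and 6.2 in the ileum (log2 fold change -4.36 ± 0.17, limma adjusted p = 6.12e-07). All 4 adult libraries lay within 3.25 and 6.2 CPM, far below both embryos. Fcgrt, the neonatal Fc receptor that carries maternal IgG, went from 101 and 87.0 CPM to 6.25 and 6.55 in the duodenum and 3.2 and 2.1 in the ileum, and Cubn, an endocytic receptor for proteins, from 156 and 123 to 2.35 and 6.1 in the duodenum and 8.05 and 7.6 in the ileum. Cym, the milk-clotting protease chymosin, was among the largest falls, from 420.2 and 360.5 CPM to 6.25 and 1.8 in the duodenum and 0.25 and 0.7 in the ileum. On the weaned side Treh (trehalase) was at 1.85 and 0.45 CPM in the embryos, 6.1 and 9.7 in the duodenum and 0.75 and 1.65 in the ileum, so that the groups overlapped and its call (log2 fold change 1.09 ± 0.37, adjusted p = 0.0579) came from the duodenum and was lost without embryo 2 (0.345), mouse 1 (0.212) or mouse 2 (0.43). Pigr, the receptor that carries IgA across the epithelium, rose in all 4 adult libraries from 789.6 and 656 CPM to 2226 and 2256 in the duodenum and 2677 and 2849.6 in the ileum (log2 fold change 1.79 ± 0.12, limma adjusted p = 8.8e-06).

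RNA of most absorptive genes tested was lower in the adult sorted cells, across lipids, ions and amino acids. 22 of 30 lipid genes fell and 2 rose (median -1.38), and 18 of 29 transporters fell and 2 rose (median -1.48). Apoa4, an apolipoprotein of chylomicrons, was at 446 and 343 CPM in the embryos, 29.4 and 53.6 in the duodenum and 1.95 and 3.45 in the ileum (log2 fold change -5.01 ± 0.22, limma adjusted p = 1.01e-06). The ileum was lowest and no adult library reached the embryos. The 2 that rose were Abcg5 and Abcg8, which together form the sterol exporter, from 8.55 and 3.95 to 15.8 CPM or more and from 9.25 and 5.95 to 15.6 CPM or more, calls that were lost without either mouse (adjusted p = 0.211 and 0.101 without mouse 1, 0.236 and 0.147 without mouse 2). Fabp6, the ileal bile acid binding protein, was at 0.95 and 0.7 CPM in the embryos, 0.4 and 0.25 in the duodenum and 32.1 and 37.4 in the ileum and was not counted, since its regions moved in opposite directions. Among transporters Slc40a1 (ferroportin), which exports iron, fell from 133 and 123 CPM to 3.6 and 9.45 in the duodenum and 3.9 and 6 in the ileum, and S100g, the calcium carrier calbindin-D9k, from 82.6 and 66.6 to 3.25 and 3.85 in the duodenum and 1.75 and 0.7 in the ileum. Slc34a2, a phosphate transporter, fell from 144 and 131 CPM to 0.75 and 0.7 in the duodenum and 12.7 and 10.1 in the ileum. The sum of the enterocyte markers given above fell too. Its members Apoa1, Apoa4, Fabp1 and Fabp2 are also in the lipid list, so the marker sum is not independent of it. Cftr, the chloride channel, was at 461 and 438 CPM in the embryos and 409 to 702 in the adults and did not pass (adjusted p = 0.269).

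Brush border genes split. 6 of 25 rose and 9 fell. Alpi, intestinal alkaline phosphatase, fell from 142 and 119 CPM to 24.8 and 43.5 in the duodenum and 2.7 and 3 in the ileum, and Anpep, aminopeptidase N, from 1409 and 1192 to 251 and 429 in the duodenum and 98.8 and 199.6 in the ileum. Cdhr5, a protocadherin that links microvilli, was at 119 and 109 CPM in the embryos, 411 and 664 in the duodenum and 129 and 253 in the ileum, above the embryos in all 4 libraries but mainly in the duodenum. Vil1 (villin), the actin bundler, was at 432 and 410.2 in the embryos, 434 and 621 in the duodenum and 342 and 353 CPM in the ileum (adjusted p = 0.95).

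Arginine and proline metabolism, which makes citrulline and arginine for the suckling animal, fell in 8 of 16 genes and rose in 3 (median -0.82). Cps1, carbamoyl phosphate synthetase, was at 7863 and 7487 CPM in the embryos, 3853 and 2969 in the duodenum and 2685 and 1646 in the ileum (log2 fold change -1.52 ± 0.17, limma adjusted p = 0.000237). Otc, the next enzyme of the pathway, was at 132 and 122 CPM in the embryos and 125 to 198 in the adults and did not pass (adjusted p = 0.237). In fatty acid synthesis, Scd2, a stearoyl-CoA desaturase, fell from 1928 and 1845 CPM to 83.7 and 141 in the duodenum and 339 and 569.8 in the ileum (log2 fold change -3.10 ± 0.20, adjusted p = 8.42e-06). Most of that list did not pass, with 3 of 26 higher and 5 lower. Xenobiotic enzymes rose in 12 and fell in 11 of 33. Adh1, an alcohol dehydrogenase, rose from 24.7 and 37.2 CPM to 859 and 1133 in the duodenum and 119 and 184 in the ileum, whereas Aldh1a1, an aldehyde dehydrogenase that also makes retinoic acid, fell from 93.2 and 99.2 CPM to 26.9 and 24.2 in the duodenum and 5.4 and 3.45 in the ileum. Retinoid genes mostly fell (6 of 11, with 1 higher), among them Rbp2, the cellular retinol binding protein of enterocytes, from 199 and 150.2 CPM to 42.6 and 65.3 in the duodenum and 1 and 1.65 in the ileum.

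**Figure D3:**
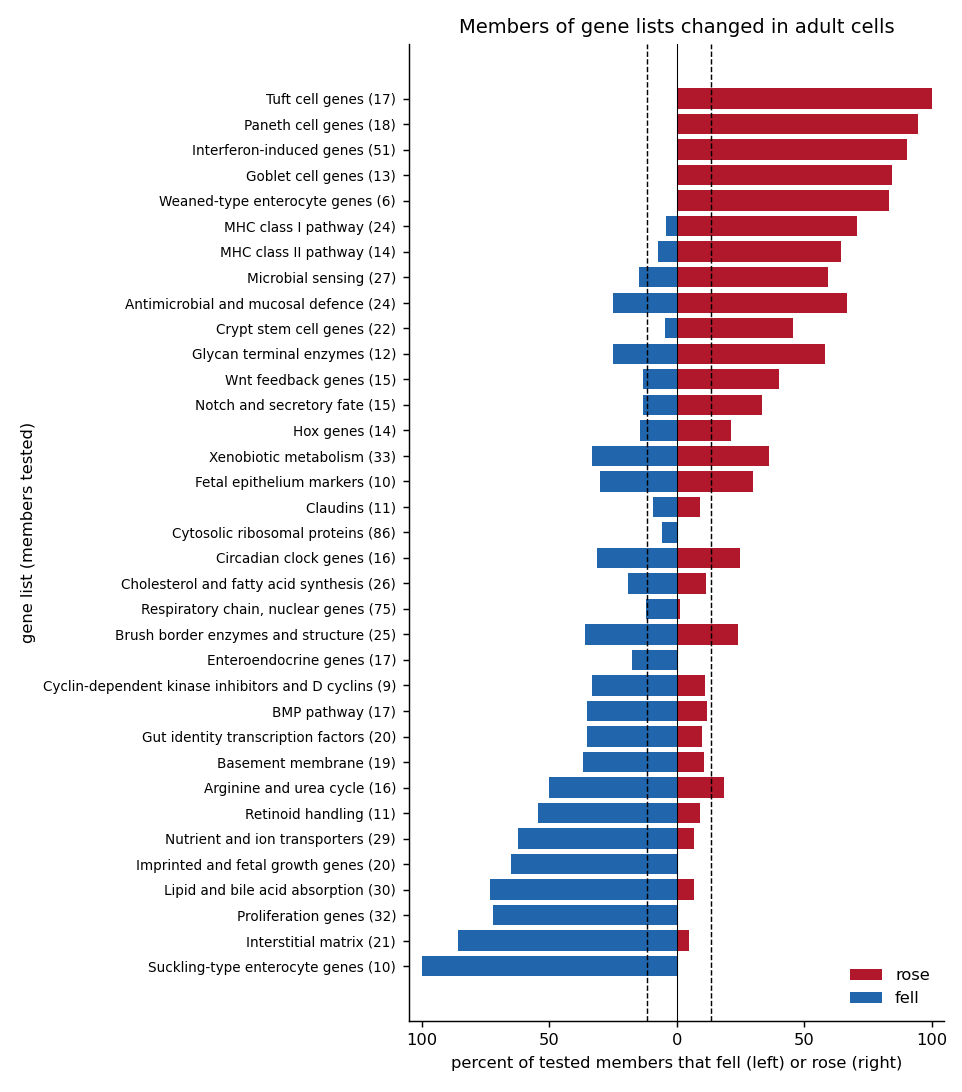
Percent of the tested members of each of the 35 gene lists that rose (right) or fell (left) in the adult, with the share over all genes tested drawn as a dashed line on each side (13.4% higher, 11.7% lower). Tuft, Paneth, interferon-induced and goblet genes have the longest bars to the right, and suckling-type, interstitial matrix, lipid absorption and proliferation genes the longest to the left.

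Paneth cell granule genes rose in 17 of 18 tested, with a median log2 fold change of 5.97. Lyz1, the lysozyme of Paneth granules, was at 16.6 and 9.9 CPM in the embryos, 8332 and 8517 in the duodenum and 5456 and 13187 in the ileum (log2 fold change 9.25 ± 0.25, limma adjusted p = 8.76e-08). Ang4, a secreted antimicrobial ribonuclease, was at 4.2 and 4.6 in the embryos, 984 and 958 in the duodenum and 594 and 1698 CPM in the ileum, and Mmp7, the protease that activates defensins, at 0.95 and 3.3 in the embryos, 167 and 238 in the duodenum and 211 and 1069 CPM in the ileum. All adult libraries lay far above both embryos, and the ileum of mouse 2 was highest for each of these 3. Lyz2, the lysozyme of macrophages and a near-identical copy of Lyz1, rose from 6.25 and 4.6 CPM to 2195 and 2005 in the duodenum and 1474 and 3112 in the ileum. Reads of the 2 lysozymes, and of the many alpha-defensin genes such as Defa29 (5.1 and 8.55 CPM in the embryos, 2500.1 and 2649.8 in the duodenum and 899 and 2842 in the ileum), may be shared between copies, so the level of a single copy is uncertain. Csf1r, a receptor of macrophages, was at 7.65 and 6.6 CPM in the embryos and 3.45 to 4.65 in the adults, a small fall (adjusted p = 0.0678) that was lost without any 1 animal (adjusted p of 0.147 to 0.261). Mptx1, a pentraxin of Paneth cells, was the 1 list member that did not pass, with 21.4 and 15.2 CPM in the embryos, 8.25 and 3.4 in the duodenum and 27.5 and 106 in the ileum. Pla2g2a, a phospholipase that kills bacteria, differed between the mice more than between the regions, with 47.0 and 1379 CPM in the duodenum and 66.5 and 3631 in the ileum of mice 1 and 2 against 0.5 and 0.7 in the embryos (log2 fold change 7.80 ± 1.27, limma adjusted p = 0.00197, and 0.103 without embryo 1).

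Other antimicrobial genes rose as well, 16 of 24 in all, with 6 lower. Reg3g, a lectin against Gram-positive bacteria, was at 2.55 and 1.55 CPM in the embryos, 26.4 and 66 in the duodenum and 556 and 624 in the ileum (log2 fold change 5.72 ± 0.26, limma adjusted p = 1.04e-06), and its relative Reg3b at 12 and 7.7 in the embryos, 10 and 40.5 in the duodenum and 301 and 330.1 CPM in the ileum. Both were highest in the ileum, and Reg3b in the duodenum of mouse 1 lay between the embryos. Retnlb, the goblet cell product RELM-beta, rose from 0.25 and 0 CPM to 63.1 and 79.2 in the duodenum and 177 and 753 in the ileum. Lypd8, which keeps flagellated bacteria off the epithelium, fell instead, from 1016 and 1036 CPM to 404 and 588 in the duodenum and 405 and 538 in the ileum (log2 fold change -1.10 ± 0.15).

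Goblet cell genes rose in 11 of 13, and 9 of these 13 were higher in the ileum than in the duodenum, against 7.38% of all genes. Muc2, the gel-forming mucin, was at 74.3 and 43.4 CPM in the embryos, 782 and 866 in the duodenum and 1293 and 5718 in the ileum (log2 fold change 4.69 ± 0.34, limma adjusted p = 1.76e-05), with the ileum of mouse 2 apart from the rest. Clca1, also of goblet cells, was not counted, since its mean on the log scale was slightly below the embryos in the duodenum and above them in the ileum, with 27 and 21.5 in the embryos, 29.1 and 18.9 in the duodenum and 41.4 and 85.0 CPM in the ileum. Enzymes that cap glycans changed in both directions (7 higher and 3 lower of 12). Fut8, which adds the core fucose of N-glycans, rose from 5.1 and 3.1 CPM to 125 and 132 in the duodenum and 115 and 167 in the ileum (log2 fold change 4.74 ± 0.21), and St3gal4, a sialyltransferase, fell from 86.2 and 88.3 CPM to 2 and 0.25 in the duodenum and 1 and 2.55 in the ileum (log2 fold change -5.28 ± 0.18).

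Every one of the 17 tuft cell genes rose, and 15 of them were higher in the duodenum than in the ileum, against 10.03% of all genes. Tuft cells are rare chemosensory cells that respond to parasites. Trpm5, the cation channel of their taste pathway, was at 0.5 and 1.55 CPM in the embryos, 639 and 1213 in the duodenum and 70.8 and 141 in the ileum (log2 fold change 7.25 ± 0.33, limma adjusted p = 1.04e-06). Dclk1, a kinase used as tuft cell marker, was at 0.7 and 2.85 in the embryos, 656 and 1069 in the duodenum and 85.2 and 176 CPM in the ileum, and Pou2f3, the factor that specifies these cells, at 0.5 and 0.25 in the embryos, 92.4 and 164 in the duodenum and 11.9 and 23.6 CPM in the ileum. For each of the 3 the duodenum of mouse 2 was highest and the lowest adult library was many times above the embryos. Enteroendocrine genes gave no rise (3 lower of 17). Ghrl, the hormone ghrelin, fell from 123 and 124 CPM to 3.95 and 4.05 in the duodenum and 3.2 and 4.85 in the ileum (log2 fold change -4.64 ± 0.16, limma adjusted p = 2.81e-07), whereas Chgb, a granin of all enteroendocrine cells, was at 22.6 and 44.2 CPM in the embryos and 16.1 to 45.6 in the adults (adjusted p = 0.824).

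RNA of Ciita, Cd74 and H2-Aa, of MHC class II antigen presentation, was near absent in the E18.5 cells and present in the adult cells. Of 14 class II pathway genes tested, 9 rose and 1 fell, and 9 were higher in the ileum than in the duodenum, against 7.38% of all genes. Ciita, the coactivator that switches the class II genes on, was at 0.25 and 0.7 CPM in the embryos, 15.2 and 11.4 in the duodenum and 111 and 67.1 in the ileum (log2 fold change 4.59 ± 0.28, limma adjusted p = 5.44e-06). Cd74, the invariant chain, followed at 0.7 and 2 in the embryos, 266 and 160.3 in the duodenum and 1331 and 1016 CPM in the ileum, and H2-Aa, a class II alpha chain, at 0.7 and 1.1 in the embryos, 80.1 and 37.3 in the duodenum and 744 and 516 CPM in the ileum. The order embryo, duodenum, ileum held in every library for these 3 genes. The 3 factors that bind class II promoters without deciding their activity did not pass, with Rfx5 at 24.2 and 24.6 CPM in the embryos and 23.9 to 31.1 in the adults, and Rfxank at 15 and 12.9 in the embryos and up to 18.2 in the adults, with all 4 adult libraries above both embryos. Ifi30, a lysosomal thiol reductase, was the member that fell, from 125 and 115 CPM to 58 and 55.9 in the duodenum and 52.3 and 46.0 in the ileum. Of the 16 lymphocyte markers 11 were below the filter, B cell markers Cd79a and Ms4a1 among them, and 4 of the 5 tested rose, with a sum of 63.2 and 91.8 CPM in the duodenum and 23.4 and 34 in the ileum. Of the 10 myeloid markers Lyz2 and Cd14 rose and Csf1r fell. The part of such cells in the class II values was not tested.

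Class II promoters carry a Y box, here searched as CTGATTGG on both strands of the 300 bases around the RefSeq starts (250 before, 50 after). It was present in 3 of the 10 tested class II genes with a promoter in the table (H2-Aa, H2-Eb1 and H2-Eb2, named for the match) and in 4.1% of all 32851 promoters. A gene was counted if any of its promoters had the motif, whereas the share over all was taken per promoter. The stretches of H2-Aa and H2-Eb1 are shown with the motif in capitals, since both genes rose, H2-Eb1 from 0.95 and 0.45 CPM in the embryos to 9.85 and 2.5 in the duodenum and 67.7 and 42.4 in the ileum.
H2-Aa (GRCm38.p6 chr17:34287842-34287899, minus strand): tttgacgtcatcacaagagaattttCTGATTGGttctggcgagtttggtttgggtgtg
H2-Eb1 (GRCm38.p6 chr17:34305780-34305837, plus strand): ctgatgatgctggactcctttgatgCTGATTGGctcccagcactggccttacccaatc

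MHC class I genes rose in 17 of 24 and fell in 1, without the regional order of class II (1 gene was higher in the ileum and 1 in the duodenum). Nlrc5, the coactivator of class I genes, was at 0.5 and 0 CPM in the embryos, 32.5 and 79.5 in the duodenum and 101 and 48.5 in the ileum (log2 fold change 5.63 ± 0.25, limma adjusted p = 1.04e-06). H2-D1, a classical class I heavy chain, was at 102 and 91.3 in the embryos, 714 and 945 in the duodenum and 683 and 429.6 CPM in the ileum, and Psmb8, of the immunoproteasome, at 7.85 and 4.6 in the embryos, 45.0 and 69.6 in the duodenum and 108 and 65.5 CPM in the ileum. Heavy chain genes share long stretches of sequence, so single members are uncertain. Interferon-induced genes rose in 46 of 51 and none fell (median 2.68). Here 22 were higher in the duodenum and 7 in the ileum, against 10.03% and 7.38% of all genes. Oas3, which makes the 2-5A signal that starts RNA decay, was at 0.5 and 0 in the embryos, 72.2 and 277 in the duodenum and 34.8 and 20.4 CPM in the ileum, highest in the duodenum of mouse 2 (log2 fold change 5.68 ± 0.29, limma adjusted p = 2e-06). Tgtp1 and Tgtp2, a pair of near-identical GTPases of cell-autonomous defence whose reads may be shared, were higher in the ileum, with Tgtp2 at 0.7 and 0.25 in the embryos, 26.2 and 68.7 in the duodenum and 212 and 83.5 CPM in the ileum. Ifit1, an antiviral RNA-binding protein, did not pass, with 11.1 and 9.65 CPM in the embryos, 16.2 and 81.2 in the duodenum and 4.15 and 5.75 in the ileum, where the duodenum was above the embryos and the ileum below.

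The core of the interferon-stimulated response element, GAAANNGAAA on either strand, was found in 19 of the 34 interferon-induced genes with a RefSeq promoter (55.9%) and in 3.44% of all promoters of the same length. A gene was counted if any of its promoters had the core, whereas the share over all was taken per promoter. Of the 29 genes that rose, 16 had the core, close to the share of the whole list. The promoters of the genes described above are shown with the core in capitals, Oas3 and the Tgtp pair as genes that rose and Ifit1 as one with 2 cores that did not pass.
Oas3 (GRCm38.p6 chr5:120777700-120777759, minus strand): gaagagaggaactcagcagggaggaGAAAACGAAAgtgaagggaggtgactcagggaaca
Tgtp1 (GRCm38.p6 chr11:48992289-48992348, minus strand): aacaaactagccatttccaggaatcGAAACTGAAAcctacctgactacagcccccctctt
Tgtp2 (GRCm38.p6 chr11:49064248-49064307, minus strand): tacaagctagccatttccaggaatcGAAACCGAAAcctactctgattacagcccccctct
Ifit1 (GRCm38.p6 chr19:34640760-34640838, plus strand): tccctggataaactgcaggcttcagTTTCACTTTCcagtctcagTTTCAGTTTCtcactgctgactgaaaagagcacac
A match is a description of the letters, and binding was not measured.

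Sensors of microbes rose in 16 of 27 and fell in 4. Tlr3, a receptor of double-stranded RNA, rose from 4.85 and 6.4 CPM to 42.9 and 55.7 in the duodenum and 51.4 and 46.0 in the ileum (log2 fold change 2.92 ± 0.18, limma adjusted p = 6.58e-06), and Tmem173 (STING), which signals cytosolic DNA, from 3.7 and 3.75 CPM to 11.8 and 16.4 in the duodenum and 33.4 and 32.0 in the ileum. Tlr5, the receptor of flagellin, moved down, from 26.3 and 21.7 CPM to 0.55 and 0 in the duodenum and 2.2 and 8.25 in the ileum (log2 fold change -3.26 ± 0.25, adjusted p = 2.26e-05). Naip6, of the receptors that start an inflammasome on bacterial proteins, was at 384 and 299 CPM in the embryos and 329.9 to 469.9 in the adults and did not pass (adjusted p = 0.27), and its copies share sequence.

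**Figure D4:**
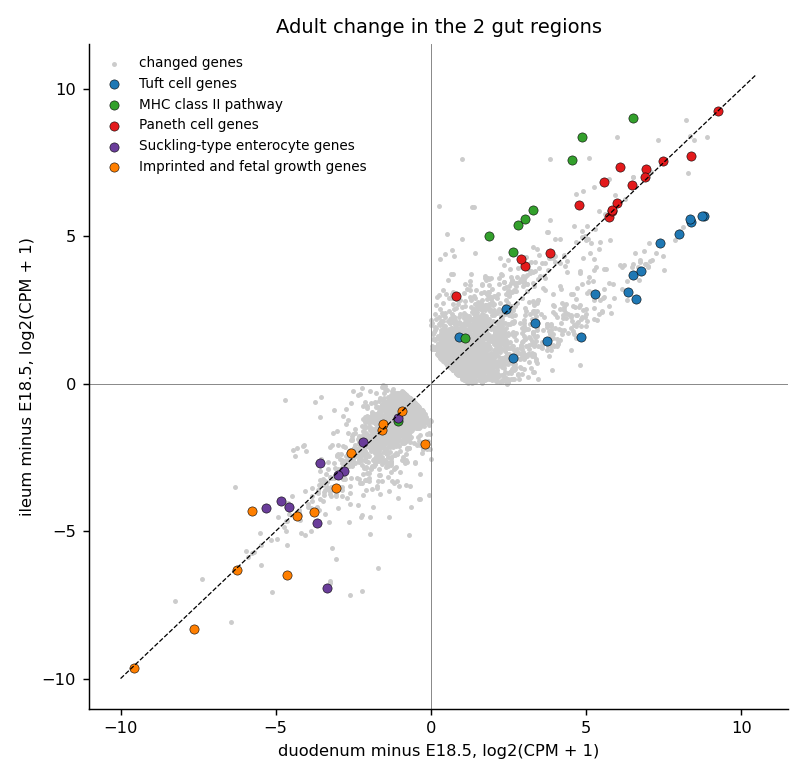
Log2 fold change of the duodenum (horizontal) and of the ileum (vertical) against E18.5 on log2(CPM + 1), with 1 point per changed gene and tuft, MHC class II, Paneth, suckling-type and imprinted genes in colour. Most tuft genes lie to the right of the diagonal and most MHC class II genes above it, while Paneth genes scatter along it.

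Crypt stem cell genes rose in 10 of 22, with 1 lower (median 0.54). Olfm4, a secreted marker of crypt base cells, was at 1941 and 1842 CPM in the embryos, 4716 and 3592 in the duodenum and 3548 and 2612 in the ileum (log2 fold change 0.90 ± 0.15, limma adjusted p = 0.00181, and 0.107 or 0.131 without embryo 1 or 2). Ascl2, the stem cell factor downstream of Wnt, was at 20.6 and 17.8 in the embryos, 32.3 and 26.5 in the duodenum and 28.8 and 26.8 CPM in the ileum, and Smoc2, a matricellular protein, at 165 and 176 in the embryos, 262 and 202 in the duodenum and 281 and 242 CPM in the ileum. Both had an FDR under 0.1, with adjusted p = 0.0296 and 0.0112, but stayed below the fold change limit. Larger rises were those of Ephb3, the receptor that keeps cells in place along the crypt, from 11.6 and 11 CPM to 124 and 98.3 in the duodenum and 164 and 166 in the ileum (log2 fold change 3.47 ± 0.13), and of Cd44, a hyaluronan receptor and Wnt target, from 95.8 and 96.8 CPM to 416 and 361 in the duodenum and 715 and 529.7 in the ileum (log2 fold change 2.33 ± 0.12). Tert, the catalytic subunit of telomerase, fell from 46.6 and 42.3 CPM to 12.7 and 11.2 in the duodenum and 10 and 11 in the ileum (log2 fold change -1.90 ± 0.15, limma adjusted p = 2.94e-05).

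Wnt feedback genes rose in 6 and fell in 2 of 15. Axin2, the feedback scaffold of beta-catenin degradation, was at 152 and 168 CPM in the embryos, 269 and 228 in the duodenum and 355 and 265 in the ileum (log2 fold change 0.78 ± 0.13, limma adjusted p = 0.00187, and 0.108 without embryo 1), and Sp5, a direct Wnt target, at 0.95 and 1.8 in the embryos, 18.1 and 9.7 in the duodenum and 8.05 and 9.85 CPM in the ileum. Sfrp5, a secreted Wnt antagonist, was at 37.9 and 36.8 in the embryos, 44.1 and 29 in the duodenum and 1.75 and 1.85 CPM in the ileum, so that the duodenum overlapped the embryos and the fall counted here lay in the ileum. Without mouse 2, or with TMM scaling, its duodenum mean was above the embryos and it was not counted. In the Notch list 5 of 15 rose and 2 fell, the ligand Jag2 and the Notch target Nrarp. Among those that rose were Dll4, a Notch ligand of secretory cells, from 3.25 and 5.95 CPM to 13.1 and 17.1 in the duodenum and 24.1 and 40.3 in the ileum (adjusted p = 0.000806, and 0.131 without mouse 2), and Atoh1, the factor that commits cells to the secretory lineage, from 3.7 and 4.2 to 8.05 and 8.1 in the duodenum and up to 63.2 in the ileum, where both libraries lay above the duodenum. Hes1, the Notch target of absorptive progenitors, was at 108 and 86.3 CPM in the embryos and 65.0 to 99.5 in the adults and did not pass (adjusted p = 0.244). The Paneth, goblet and tuft markers, which mark secretory or related cells, were also higher in the adult, whereas enteroendocrine genes gave no rise. By region, Atoh1 was higher in the ileum and 15 of the 17 tuft cell genes were higher in the duodenum. BMP pathway genes were lower in 6 and higher in 2 of 17, with Smad6, an inhibitor of BMP signalling, falling from 20.3 and 21.5 CPM to 4.5 and 6.1 in the duodenum and 1 and 4.6 in the ileum, and Id3, a BMP target, rising from 16.9 and 10.3 CPM to 38.4 and 40.6 in the duodenum and 34.5 and 20.4 in the ileum (adjusted p = 0.0041, and 0.178 or 0.149 without mouse 1 or 2).

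Proliferation genes were lower in the adult cells in 23 of 32, and none was higher (median -0.74). Mki67, present in cycling cells, was at 1495 and 1617 CPM in the embryos, 982 and 912 in the duodenum and 1077 and 882 in the ileum (log2 fold change -0.69 ± 0.11, limma adjusted p = 0.0017, and 0.126 without embryo 2). Birc5 (survivin), needed for chromosome segregation, was at 102 and 100.3 in the embryos, 34.5 and 34.6 in the duodenum and 51.4 and 37.5 CPM in the ileum, and Ccnd2, a cyclin of G1, at 482 and 475 in the embryos, 272 and 239 in the duodenum and 270.2 and 237 CPM in the ileum (log2 fold change -0.91 ± 0.10). In these 3 all adult libraries lay below both embryos, whereas Ccnd1, another G1 cyclin, was at 93.4 and 107 in the embryos, 98.0 and 53 in the duodenum and 208 and 118 CPM in the ileum with overlap (adjusted p = 0.818). Of 86 ribosomal protein genes 5 fell and none rose (median -0.25), and of 75 nuclear genes of the respiratory chain 9 fell and 1 rose (median -0.44). The share of ribosomal genes that fell was below the 11.7% of all genes tested that fell, and that of respiratory genes was close to it. In 61 of the respiratory genes all 4 adult libraries lay below both embryos, against 24.4% of all genes, most of these falls staying under the limits.

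Transcription factors of gut identity fell in 7 and rose in 2 of 20. Gata4, a factor of the proximal intestine, was at 101 and 96.8 CPM in the embryos, 75.7 and 79.7 in the duodenum and 4.9 and 6.45 in the ileum, so that most of the fall lay in the ileum (difference between ileum and duodenum -3.57 ± 0.14, limma adjusted p = 1.21e-06). Maf, a factor of the absorptive lineage, fell in both, from 52.1 and 52.8 CPM to 8.05 and 14.6 in the duodenum and 6.6 and 6.2 in the ileum, and Klf4, of secretory and surface cells, rose from 23.6 and 25.6 CPM to 98.3 and 89.8 in the duodenum and 59.1 and 95 in the ileum. Hnf4a, a nuclear receptor of gut epithelium, was at 650.1 and 590.2 CPM in the embryos and 427 to 504 in the adults, below the fold change limit. Of 39 Hox genes 14 were tested, 3 rose and 2 fell. Hoxb9 was at 0.7 and 1.1 CPM in the embryos, 0 and 0.25 in the duodenum and 22.9 and 32.8 in the ileum and was not counted, since its regions moved apart. Clock genes changed in both directions, with 4 higher and 5 lower of 16. Nr1d1 (Rev-erb alpha), a repressor in the clock, rose from 9.25 and 9.9 CPM to 65.2 and 56.6 in the duodenum and 30.6 and 24.5 in the ileum. Per2, another clock gene, fell from 99.7 and 102 CPM to between 15.1 and 29.6 in the adult libraries. The hour of sampling is not given in the sources used here.

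Interstitial matrix genes fell in 18 of 21 tested, with 1 higher. The 27 listed genes summed to 123 and 152 CPM in the embryos, Thbs1 included. Only 1 tested member, Thbs1, had a mean of at least 10 CPM, so the falls were of genes at low levels. Of the basement membrane genes 7 of 19 fell, 2 rose and 10 did not pass (median log2 fold change -0.28, and 0.36 over the 7 with a mean of at least 10 CPM). Thbs1, thrombospondin 1, was at 15.9 and 19.9 CPM in the embryos, 285 and 319 in the duodenum and 385 and 816 in the ileum (log2 fold change 4.45 ± 0.20, limma adjusted p = 9.67e-07). Lamb3, the beta chain of laminin-332, rose from 4.85 and 5.5 CPM to 25.1 and 20 in the duodenum and 27.8 and 18.8 in the ileum, and Col15a1, a collagen of basement membranes, from 0.95 and 0.25 CPM to 49.2 and 81.0 in the duodenum and 2.7 and 12.2 in the ileum. Lamc1, the gamma chain of most laminins, fell from 98.5 and 104 CPM to 37.0 and 24.2 in the duodenum and 26.8 and 32.3 in the ileum. The mesenchyme markers given above fell with these genes. Claudins, the strands of tight junctions, had 1 higher and 1 lower of 11 tested, Cldn3 rising from 59.8 and 61.4 CPM to 85.7 or more and Cldn8 falling from 17.1 and 19.1 CPM to 2.95 or less. Of 9 cyclin-dependent kinase inhibitors and D cyclins 1 rose and 3 fell.

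The 2 adult regions differed from each other in 3404 of the genes tested (17.4%) at an FDR of 0.1, with 1443 higher in the ileum and 1961 higher in the duodenum. With the mouse as a fixed block the count was 1537, with 525 higher in the ileum and 1012 higher in the duodenum. Since the same E18.5 cells are the reference for both, this is also the test of a difference between the regional contrasts with E18.5. Those cells came from the whole small intestine, so a regional difference already present before birth cannot be told apart from a later one. Among the 4913 changed genes, 1604 (32.6%) differed between the adult regions. The larger distance from E18.5 was in the ileum for 744 and in the duodenum for 860. The 5 genes with the largest regional difference of opposite sign were Gm53, Serpina10, Gcg, Slc5a8 and Gkn3. Serpina10, a plasma protease inhibitor, was at 12 and 12.5 CPM in the embryos, 1.8 and 1.35 in the duodenum and 103 and 80.3 in the ileum (ileum minus duodenum 5.17 ± 0.18 on the log2 scale, limma adjusted p = 8.33e-07). Gcg, the precursor of glucagon-like peptides, was listed at 0 and 0 CPM in the duodenum and at 14.4 and 73.5 in the ileum, against 2.8 and 3.55 in the embryos. Slc5a8, a transporter of short-chain fatty acids, was at 5.1 and 5.05 CPM in the embryos, 0.9 and 0.45 in the duodenum and 36.8 and 66.7 in the ileum. Gkn3, a gastrokine, was the reverse, with 20.8 and 23.2 in the embryos, 31.2 and 32.5 in the duodenum and 0 and 0.25 CPM in the ileum. For each of these genes 1 adult region lay below the embryos and the other above them.

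Other sorted libraries of the series share no sample with this comparison and were set beside it without a test. They are 2 pools of E16.5 HE embryos of the same line and 5 libraries of adult ileum from Lgr5-Cre mice given tamoxifen, of either Lgr5 genotype, sorted for GFP and RFP, so line, treatment, gate and region differ. On log2(CPM + 1), 86.9% of the genes counted as higher in the adult were also higher in the Cre ileum than in the E16.5 pools, beside 75.9% of all tested genes with a positive log2 fold change. For genes counted as lower the share was 62.4%, beside 46.8% of all tested genes with a negative one. Several genes described above were also far apart there. H19 was at 8632 and 6178 CPM in the E16.5 pools and at 3.35 or less in the Cre ileum, and Igf2bp1 at 147 and 135 in the pools and 3.25 or less in the Cre ileum. Cd74 was at 32.1 and 16.6 CPM in the E16.5 pools and 896 to 1207 in the Cre ileum, and Fut8 at 7.85 and 16.6 in the pools and 159.6 to 188 in the Cre ileum. Genes of mature secretory and tuft cells differed in both directions between the Cre libraries and the ileum of the DTReGFP mice. Lower in the Cre libraries were Lyz1 at 472 to 1422 CPM against 5456 and 13187, Lyz2 at 21.2 to 54.1 against 1474 and 3112, and Trpm5 at 9.8 to 36.1 against 70.8 and 141. Higher there were Clca1 at 328 to 1236 CPM against 41.4 and 85.0, and Chgb at 216 to 695 against 16.1 and 45.6. Mki67 was at 1404 and 1718 CPM in the E16.5 pools and 1230.2 to 1625 in the Cre ileum, ranges that overlap.

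**Figure D5:**
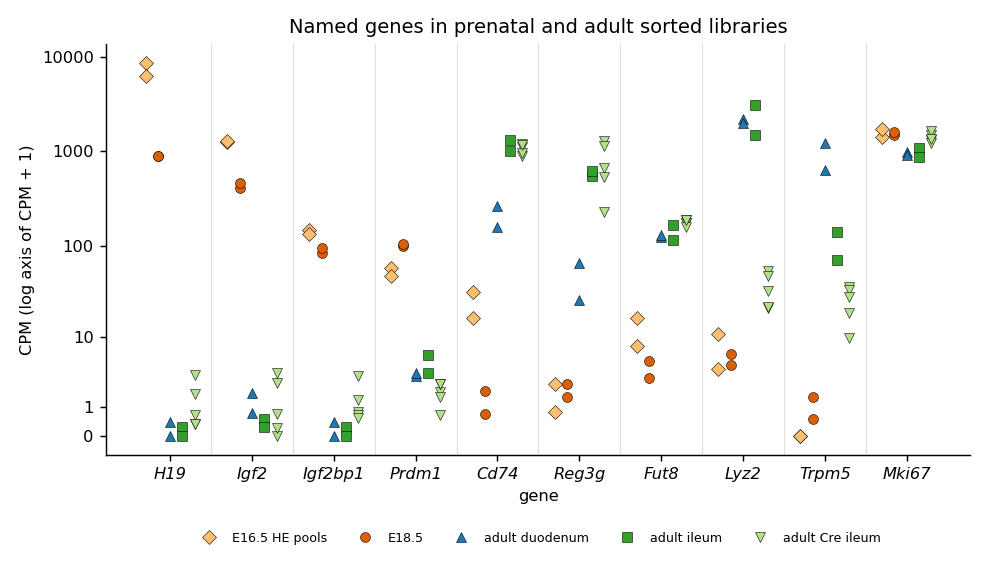
CPM of 10 named genes on a log axis of CPM + 1 in the E16.5 HE pools, the E18.5 HE embryos, the adult DTReGFP libraries (duodenum and ileum) and the 5 adult Cre ileum libraries, with 1 point per library. H19, Igf2, Igf2bp1 and Prdm1 are high in both prenatal groups and low in both adult groups, Cd74, Reg3g and Fut8 are low before birth and high in the ileum of both adult groups, and Lyz2 and Trpm5 are highest in the DTReGFP adults.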

How the data were processed

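RNA from GFP+ve cells sorted by flow cytometry was sequenced in paired ends after library preparation with the Ovation SoLo kit. Per the labels and the study's methods, the authors trimmed reads with Trimmomatic 0.36, aligned them with STAR 2.5.3a to GRCm38.p4 (mm10), counted reads on genes with HTSeq 0.9.1 and deposited CPM (read counts scaled to the library total), rounded up to steps of 0.05. The deposited CPM were the values analysed. Whole reads could not be recovered for nearly all genes, so no count test was run, and depth was estimated from the steps between low values. It covers counting error only, and 1 read was worth 0.178 to 0.243 CPM. Samples were mapped to columns by the names in the labels, and 30 organoid samples were not analysed here.

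A gene entered the test if 2 or more of the 6 libraries reached 1 CPM. Values of log2(CPM + 1) of the duodenum and ileum of 1 mouse were averaged, and 2 mice were compared with 2 embryos by limma 3.58.1 (moderated with trend, 2-sided) in R 4.3.3, with Benjamini-Hochberg adjustment over all genes tested. A gene was called changed with an adjusted p under 0.1 and more than 1.5-fold difference, with both regional means on the same side of the E18.5 mean. Ileum and duodenum were compared by limma over 3 groups with the animal as random block (consensus correlation 0.297). On simulated data the test recovered 60% of genes changed 2-fold and 100% of those changed 4-fold. The test does not use the replicate numbers of the labels as pairs. Over the 19554 genes tested the deviations of the embryo and the mouse of the same number correlated at 0.029, so the numbers were not taken as pairs.

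Members, gene lists and markers were chosen with earlier results of these data known. Named genes are the 12 largest rises and falls above 10 CPM in the higher stage, up to 5 changed members per direction and up to 3 that did not pass for each list, a fixed set, and the 5 genes with the largest regional difference of opposite sign. H2-Eb1, H2-Eb2 and other members named only in a count were added afterwards. Results of some genes that the rule names are not reported here. Promoters and miRNA sequences are from RefSeq (GRCm38.p6). Of the 52636 genes 99.6% matched the GRCm38 annotation.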

Additional observations from a re-analysis of the deposited data

Results flagged for a closer look

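The adult level differed between the gut regions for 63 of the 119 named genes with a test, at an FDR of 0.1. The test was limma with the mouse as random block. The higher level was in the ileum for 31 genes and in the duodenum for 32. The same 2 embryos, sampled over the whole small intestine, were the reference for both regions. Over all genes tested the share was 17.4%, and the named genes were partly chosen for this difference. Values below are the log2 difference of ileum minus duodenum, so that a negative value means a higher level in the duodenum.

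Most of the named absorptive genes that differed were higher in the duodenum. The difference was -4.55 for Rbp2, -3.49 for Apoa4, -3.14 for Alpi, -2.73 for Adh1, -2.32 for Aldh1a1 and -2.02 for Treh. It was -1.63 for Cym, -1.53 for Cdhr5, -1.22 for Anpep, -1.07 for S100g, -1.04 for Fcgrt, -0.69 for Cps1, -0.69 for Abcg8 and -0.58 for Vil1. The ileum was higher for other genes of absorption and lipid synthesis, with 2.84 for Slc34a2, 4.75 for Fabp6, 4.93 for Slc5a8, 2.01 for Scd2 and 0.86 for Cubn.

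Tuft cell genes were higher in the duodenum, by -3.12 for Trpm5, -2.80 for Pou2f3, -2.76 for Dclk1 and -3.05 for Sh2d6. Interferon-induced genes split, with -2.37 for Oas3, -2.68 for Ifit1 and 1.62 for Tgtp2. The named MHC class II genes were higher in the ileum, by 3.48 for H2-Aa, 3.15 for H2-Eb1, 2.62 for Ciita and 2.49 for Cd74, while class I gave -0.60 for H2-D1. The named secretory and defence genes that differed were higher in the ileum, with 3.89 for Reg3b, 3.78 for Reg3g, 3.12 for Mptx1, 2.35 for Retnlb, 1.72 for Muc2, 1.30 for Clca1, 1.96 for Atoh1 and 1.01 for Dll4. Of the whole lists 5 of 18 Paneth cell genes and 7 of 24 antimicrobial genes were higher in the ileum, and 3 antimicrobial genes were higher in the duodenum. Over all genes tested 7.38% were higher in the ileum and 10.03% in the duodenum. Microbial sensors gave 2.13 for Tlr5, 1.17 for Tmem173 and 0.46 for Naip6.

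Genes known for position along the gut, or chosen for opposite changes, gave -3.57 for Gata4, -3.72 for Sfrp5, -4.88 for Gkn3, 4.67 for Hoxb9, 5.17 for Serpina10, 5.08 for Gcg and 5.59 for Gm53. Stem cell and cycle genes had smaller differences, -0.43 for Olfm4, 0.57 for Ephb3, 0.67 for Cd44 and 1.11 for Ccnd1. The rest were 3.58 for Ly6a, -1.86 for Grb10, 1.44 for Plagl1, -3.20 for Col15a1, 0.89 for Thbs1, -1.12 for Nr1d1, -0.68 for Maf and -0.67 for Cldn3, and -1.95 for Ros1 and -0.70 for Plod2. For Gata4, Sfrp5, Treh and Ly6a the fall or rise counted in the adult lay mostly in 1 region, and for Hoxb9, Fabp6, Gcg, Gm53, Slc5a8, Serpina10, Gkn3, Ifit1, Mptx1, Clca1, Ccnd1, Naip6 and Vil1 the regions lay on opposite sides of the embryos. With 2 mice, a region effect of 1 animal weighs heavily, and the ileum of mouse 2 was the highest library for Muc2, Retnlb, Atoh1 and Mptx1.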

How the results depend on the processing

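The count of changed genes was 4913. No changed gene turned its direction in any alternative that was run, but in many of them it could not have turned. The same-way rule fixes the sign in each region alone, and other limits, blocks or filters reuse the same mean difference. The count was 2630 of 10662 genes tested with a mean of at least 10 CPM, where fewer genes were tested. Leaving out 1 animal gave 2887 (without mouse 2) to 4190 (without mouse 1), with 3232 and 3130 without embryo 1 and embryo 2, and the lone sample of a group was then taken to vary like the other group. The other alternatives, among them 4 adult libraries against 2 (3717), each region alone (5226 for duodenum, 4307 for ileum), a pseudocount of 0.1 (4822) and TMM scaling (4835), stayed within 1.5 times. TMM scaling moved the median log2 fold change over all genes from -0.038 to 0.017. With the replicate number as a replicate block, which the pairing check does not warrant, 5175 genes were called. The count for ileum against duodenum fell from 3404 to 1537 with the mouse as a fixed block. The cause was not tested. Of the list genes tested 428 changed, and 349 to 435 without mouse 2 or mouse 1, and 332 with a mean of at least 10 CPM. For the other sorted libraries the share with the same sign was 75.5%, and 74.5% with only the 2 libraries labelled HE, an alternative chosen after seeing the data, as were the list counts without a mouse.

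Of 119 named genes 82 kept direction and call in every alternative, and 11 lost the call without 1 animal, 10 of them with adjusted p of 0.101 to 0.43 and Sfrp5 through the same-way rule. List medians changed sign with a mean of at least 10 CPM for BMP (-0.28 to 0.07), xenobiotic (0.31 to -0.62), basement membrane (-0.28 to 0.36) and interstitial matrix genes (-1.86 to 4.45, where 1 member was left), and with a pseudocount of 0.1 for fetal epithelium markers (0.02 to -0.47). Genes not counted as changed turned sign with the duodenum alone: Ccnd1 -0.47, Chgb 0.02, Clca1 -0.04, Fabp6 -0.46, Gcg -2.06, Gkn3 0.52, Gm53 -0.97, Hoxb9 -0.76, Naip6 -0.02, Serpina10 -2.37 and Slc5a8 -1.87. With the ileum alone Ifit1 gave -0.95, Mptx1 1.54 and Vil1 -0.28. With a pseudocount of 0.1 Gcg gave -0.85 and Serpina10 -0.01, and Mptx1 gave 0.04 with TMM scaling. Without 1 animal the values ran from -0.33 to 0.51 for Ccnd1, -0.01 to 0.54 for Cftr, -0.57 to 0.37 for Chgb, -0.08 to 1.05 for Gcg, -0.27 to 1.05 for Ifit1, -0.26 to 0.22 for Mptx1, -0.02 to 0.20 for Rfx5 and -0.13 to 0.15 for Vil1.

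Count tests on recovered reads were planned and not run. With 2 animals a group, and 1 read worth 0.178 to 0.243 CPM, genes of a few CPM are known only coarsely. In simulated data, which left out changes in the lowest genes and had a spread set by hand, 60% of genes changed 2-fold were recovered.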

Other observations

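Several genes with large changes have not been described above. Ros1, a receptor tyrosine kinase, was at 173 and 160.3 CPM in the embryos, 3.05 and 4.75 in the duodenum and 0.25 and 0.25 in the ileum (log2 fold change -6.09 ± 0.17, limma adjusted p = 8.76e-08). Meltf (melanotransferrin), an iron-binding surface protein, was at 92.2 and 62.2 CPM in the embryos, 0.2 and 0.25 in the duodenum and 0.5 and 0.5 in the ileum. Plod2, which hydroxylates lysines of collagen, fell from 71.3 and 69.7 CPM to 0.55 and 0.7 in the duodenum and 0 and 0 in the ileum. For each of these 3 genes both regions of both mice lay far below both embryos.

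Sh2d6, an adaptor protein with an SH2 domain, rose from 0.7 and 1.1 CPM in the embryos to 636 and 1023 in the duodenum and 79.5 and 118 in the ileum, with both duodenum libraries above both ileum libraries. AY761184, a defensin-related gene, was at 1.85 and 2.2 CPM in the embryos, 1422 and 1483 in the duodenum and 556 and 1773 in the ileum, and may share reads with its copies. Gm53, a gene with a predicted name, was at 0.5 and 1.55 CPM in the embryos, 0 and 0 in the duodenum and 48.5 and 45.6 in the ileum, so that it was called for the ileum against the duodenum (5.59 ± 0.27 on the log2 scale, limma adjusted p = 5.56e-06).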
